A study of Homo sapiens with 2 samples.

Results

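The cadherin switch is the replacement of E-cadherin by N-cadherin during epithelial–mesenchymal transition (EMT). To describe it in hepatocellular carcinoma (HCC) cells, 10 genes were taken by symbol from the deposited tables, each of which lists 58174 genes: CDH1, CDH2, TJP1, SNAI1, SNAI2, ZEB1, ZEB2, TWIST1, VIM and FN1. All 10 were found, each in 1 row. The genes were chosen by name with their values in these 2 libraries already known, so the levels and changes below describe them and no test was made on them. RNA-seq was performed on PLC-8024, a human HCC cell line, with 1 library per condition. PLC-8024-CTR cells were the control and PLC-8024-GDF1 cells overexpressed human GDF1, a ligand of the TGF-β superfamily, after lentiviral transduction and puromycin selection. Whether each line was a pool or a clone is not given in the sources used here.

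In an epithelial sheet, E-cadherin (CDH1) joins neighbouring cells at adherens junctions and is anchored to actin through catenins, while ZO-1 (TJP1) organises the tight junction above it. The transcription factors SNAI1, SNAI2, ZEB1, ZEB2 and TWIST1 can repress CDH1, the first 4 by binding E-box sequences in its promoter. TGF-β signals through SMAD proteins are a classical inducer of these factors, and cells in transition typically gain N-cadherin (CDH2), vimentin (VIM) and fibronectin (FN1). Hepatocytes are unusual epithelial cells in that they hold N-cadherin as well as E-cadherin.

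Levels below are in TPM, a transcript abundance that the authors scaled by gene length and library total, so that levels of different genes can be set side by side within a library. Where a pair of levels or ratios is given, PLC-8024-CTR comes first and PLC-8024-GDF1 second. The deposited column is headed as a mean TPM, while each condition has a single listed library, and what was averaged is not given in the sources used here. No counting error can be given, because TPM keeps no sequencing depth, and without replicates the size of a difference cannot be set against their spread. Changes are differences of log2(TPM + 1), GDF1 minus CTR, a scale that understates the change of genes with low TPM. A gene is said to have risen or fallen where this change passed 2-fold. Genes that reached 1 TPM in 1 or both libraries are called expressed. Of 14929 expressed genes, 4.82% rose and 9.61% fell by this rule, and the median log2 change was -0.20. TPM was also rescaled, by a shift of 0.21 on the log2 scale. This set to 0 the median log2 plain ratio of genes with at least 5 TPM in 1 or both libraries. With rescaled TPM the numbers changed from 720 rising and 1434 falling genes to 1040 and 1022.

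The introduced gene was listed at 2.1 and 4.64 TPM. CERS1, within whose locus GDF1 lies, was listed at 13.3 and 9612 TPM. All 15 hepatocyte and HCC markers were expressed, with a summed level of 21741 and 16493 TPM. Of these 8 fell (53.3%, beside 9.61% of all expressed genes) and none rose. Whether this has a part in the results below was not tested. In bulk RNA, fewer cells of a type and less RNA per cell cannot be told apart. Of the 15 markers, AHSG (399.1 and 25.8 TPM) and TTR (7.17 and 0.34 TPM) had the lowest log2 changes. With rescaled TPM, ALB (-0.998) and HNF4A (-0.84) of the 8 were within 2-fold. Keratin 18 (KRT18), within 2-fold and not typical of the markers that fell, was listed at 1005 and 1224 TPM. Of 10 fibroblast and stellate cell markers only COL3A1 reached 1 TPM (3.22 and 1.23 TPM). The 10 together summed to 3.8 and 2.76 TPM, and COL1A2, DCN, PDGFRA, POSTN and FAP were listed at 0.0001 TPM, the value that stands in place of 0, in both libraries. Of 7 endothelial markers only PECAM1 reached 1 TPM (23.2 and 22.2 TPM), with VWF, KDR and TEK at 0.0001 TPM, and the list summed to 23.6 and 23.0 TPM. Of 7 leukocyte markers CD68 (33.1 and 13.2 TPM) and LYZ (298.0 and 213.5 TPM) reached 1 TPM, with PTPRC at 0.0001 TPM, and the list summed to 332.4 and 228.1 TPM.

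Because E-boxes and cis-elements in promoters underlie the textbook account of these genes, the promoter sequences are described first. Windows from RefSeq (GRCh38.p14) were used for 6 of the 10 genes (CDH2, FN1, TJP1, VIM, ZEB1 and ZEB2), with 16 start sites among them. The promoters of CDH1, SNAI1, SNAI2 and TWIST1 were not analysed here. The 250 bases before each start were searched for CAGGTG, the E-box bound by SNAI and ZEB factors, on both strands (CACCTG is the other strand). All 16 windows matched GRCh37 (hg19), the build of the deposited data, at a single place, and the positions are from that match. The E-box was found in 3 of the 16 windows, which belong to ZEB1 and TJP1, and in 17.5% of 34796 distinct RefSeq windows of that length. No E-box of this form stood in the windows of FN1, VIM, CDH2 or ZEB2. A match is a description of the letters and not evidence of binding.

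The 4 matches are printed below 5′ to 3′ on the strand of the gene, with the E-box in capitals, because ZEB1 is itself a factor that binds this sequence and TJP1 is a junction gene. The first ZEB1 match lies 57 bases before its start at chr10:31607277-31607306 (plus strand), upstream of the annotated gene. The other two ZEB1 matches belong to a later start, 242 and 85 bases before it, at chr10:31607895-31607920 and chr10:31608048-31608077 (plus strand), inside an annotated exon of ZEB1. The TJP1 match lies 88 bases before its start at chr15:30261323-30261352 (minus strand), upstream of the annotated gene.
ZEB1 first match: ccgaggtgacagCAGGTGagggccgggtgc
ZEB1 second match: ccccaccaCACCTGaggaaaactttt
ZEB1 last match: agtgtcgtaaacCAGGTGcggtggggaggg
TJP1 match: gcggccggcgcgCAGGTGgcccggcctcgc

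The promoter of FN1, the most abundant of the 10 genes in both libraries, is shown for its cAMP response element, TGACGTCA, in capitals. The element reads the same on both strands, begins 183 bases before the RefSeq start and was present in 1.64% of all RefSeq windows. The stretch is chr2:216300797-216301041 of GRCh37 on the minus strand, 245 bases that end at the border of the annotated gene.
FN1 promoter: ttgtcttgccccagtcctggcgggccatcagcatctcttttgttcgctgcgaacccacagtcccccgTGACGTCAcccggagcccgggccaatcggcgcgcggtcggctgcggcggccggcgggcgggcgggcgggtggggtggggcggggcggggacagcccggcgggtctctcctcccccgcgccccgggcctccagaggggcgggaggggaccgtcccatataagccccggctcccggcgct

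Of the 10 genes, 5 were expressed (CDH1, TJP1, SNAI1, VIM and FN1). ZEB1 and ZEB2 were detected under 1 TPM, and CDH2, SNAI2 and TWIST1 were listed at 0.0001 TPM in both libraries. CDH1, SNAI1 and FN1 fell, TJP1 and VIM were within 2-fold, and none rose, beside a background of 9.61% falling and 4.82% rising among all genes. Since the genes were chosen with this contrast known, nothing is read from that count.

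**Figure D1:**
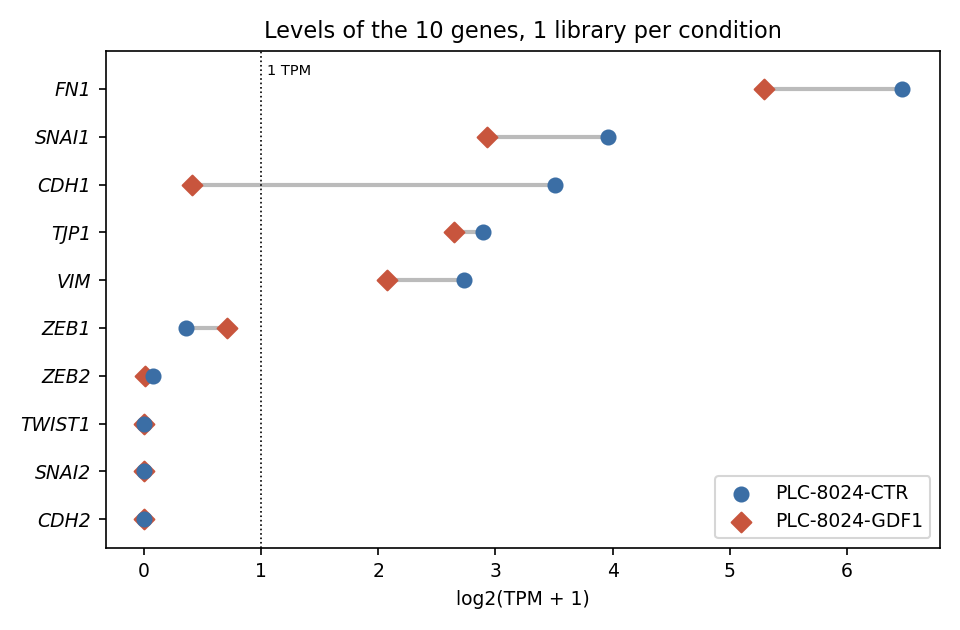
Levels of the 10 genes as log2(TPM + 1) in PLC-8024-CTR (blue circles) and PLC-8024-GDF1 (red diamonds), 1 library each, joined by a grey line. The dotted line marks 1 TPM. CDH1 crosses that line from 10.4 to 0.33 TPM, while CDH2, SNAI2 and TWIST1 sit at 0 in both libraries.

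CDH1 (ENSG00000039068, chromosome 16 of GRCh37, 68771195 to 68869440, plus strand), the gene for E-cadherin, was listed at 10.4 and 0.33 TPM. The log2 change was -3.10, and the plain ratio was 31.5-fold lower in PLC-8024-GDF1. Among the 14929 genes, 34 had a lower log2 change than CDH1, which thus ranked at position 35. In PLC-8024-CTR its level was above that of 54.7% of these genes, and in PLC-8024-GDF1 above that of 1.6%. The level in PLC-8024-GDF1 is under 1 TPM, where the plain ratio rests on a small value of unknown depth.

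CDH2 (ENSG00000170558, chromosome 18, 25512843 to 25757910, minus strand), the gene for N-cadherin, was listed at 0.0001 TPM in each library. The fall of CDH1 therefore stood beside no listed level of CDH2, and no ratio of CDH2 to CDH1 was computed. A list of 20 other cadherins, mostly classical and type II, was then examined. Of the 20 genes, 3 were expressed, all within 2-fold. CDH17, the liver-intestine cadherin, which belongs to neither type, was listed at 14.1 and 14.6 TPM. CDH24 was listed at 12 and 10.2 TPM, and CDH15 at 0.52 and 1.07 TPM. P-cadherin (CDH3), the neighbour of CDH1, was listed at 0.22 and 0.051 TPM. Over all 22 cadherins, CDH1 included, the summed level was 38.5 and 27.5 TPM. CDH1 gave 26.9% of that sum in PLC-8024-CTR and 1.19% in PLC-8024-GDF1, and CDH17 and CDH24 gave most of the rest.

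TJP1 (ENSG00000104067, chromosome 15, 29991571 to 30261118, minus strand), which encodes the tight junction scaffold ZO-1, was listed at 6.44 and 5.27 TPM. Its log2 change of -0.25 was close to the median of all genes (-0.20), and turned to 0.053 once the GC trend described below was removed. Its paralog TJP3 was listed at 44.4 and 51.0 TPM.

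SNAI1 (ENSG00000124216, chromosome 20, 48599517 to 48605423, plus strand), which encodes the repressor Snail, was listed at 14.6 and 6.59 TPM. The log2 change was -1.04 and the plain ratio 2.21-fold lower in PLC-8024-GDF1. SNAI1 lies just past the 2-fold border, and its log2 change was -0.86 with rescaled TPM. SNAI1 was the only 1 of the 5 repressors that was expressed, and it was lower in the library in which CDH1 was lower.

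The other repressors were at or near 0. ZEB1 (ENSG00000148516, chromosome 10, 31607424 to 31818742, plus strand) was listed at 0.28 and 0.64 TPM. It was the only gene of the 10 with a higher level in PLC-8024-GDF1, and its log2 change was 0.35, or 2.25-fold by the plain ratio. ZEB2 (ENSG00000169554, chromosome 2, 145121931 to 145278624, minus strand) was listed at 0.055 and 0.0068 TPM. SNAI2 (ENSG00000019549, chromosome 8, 49830157 to 49834299, minus strand), which encodes Slug, and TWIST1 (ENSG00000122691, chromosome 7, 19060614 to 19157259, minus strand) were both listed at 0.0001 TPM in each library. ZEB1-AS1, an antisense transcript that overlaps ZEB1, was listed at 1.75 and 1.34 TPM, above ZEB1 in both libraries. The sources used here do not state that quantification used strand, so reads of ZEB1 and ZEB1-AS1 may not be told apart where they overlap.

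VIM (ENSG00000026025, chromosome 10, 17270240 to 17279592, plus strand), which encodes the intermediate filament of mesenchymal cells, was listed at 5.65 and 3.21 TPM. Its log2 change of -0.66 was within 2-fold. VIM stood far below the keratins that mark hepatocytes. The ratio of VIM to KRT18 was 0.0056 and 0.0026.

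FN1 (ENSG00000115414, chromosome 2, 216225163 to 216300796, minus strand), whose product is both a plasma protein of hepatocytes and a matrix protein of mesenchymal cells, was listed at 87.5 and 38.1 TPM. The log2 change was -1.18 and the plain ratio 2.30-fold lower in PLC-8024-GDF1. With rescaled TPM the log2 change was -0.98, within 2-fold. The FN1 to SNAI1 ratio, which was not planned, was 6.0 and 5.78. With the GC trend removed their log2 changes were -0.81 for FN1 and -1.0 for SNAI1. With 1 library per condition, no shared pattern is read from this.

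**Figure D2:**
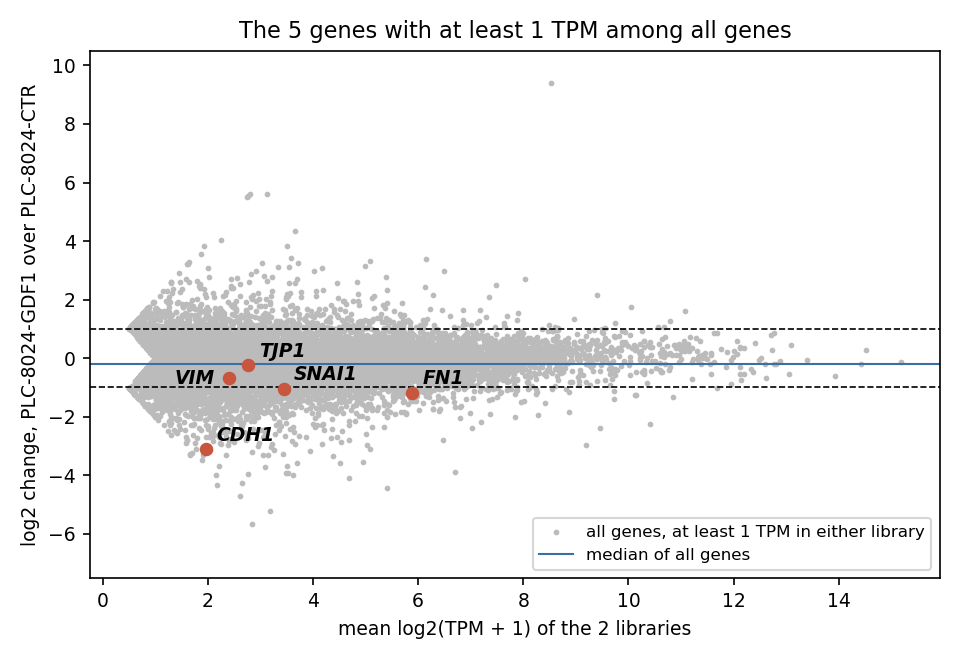
Log2 change (GDF1 minus CTR) against mean log2(TPM + 1) for the 14929 expressed genes (grey), with the 5 named genes of that level in red. The dashed lines mark 2-fold and the blue line the median of all genes (-0.20). CDH1 lies at -3.10, near the lower edge of genes of its level, and TJP1 lies near the median.

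Within PLC-8024-CTR the order of levels was FN1, SNAI1, CDH1, TJP1, VIM, ZEB1 and ZEB2. Within PLC-8024-GDF1 it was FN1, SNAI1, TJP1, VIM, ZEB1, CDH1 and ZEB2, so CDH1 moved from the third to the sixth place and the others kept their order among themselves. No spread between replicates is known, so it cannot be said which neighbours in these orders differ. Ratios within a library do not depend on scaling between libraries. Those given here were not planned. The VIM to CDH1 ratio was 0.55 and 9.77, a difference of 4.16 on the log2 scale, although VIM itself was lower in PLC-8024-GDF1. The SNAI1 to CDH1 ratio was 1.41 and 20.1, and the TJP1 to CDH1 ratio was 0.62 and 16.0.

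The way the change was computed mattered for the genes near the border. Across 14640 genes with a GC value, the change followed the GC content of the longest transcript. From the most GC-poor to the most GC-rich quintile, the median log2 change went from -0.45 to 0.11. CDH1 (48.2% GC) and VIM (46.9%) were in the middle quintile, whose median was -0.21, and FN1 (42.2%) and TJP1 (44.8%) in the second, whose median was -0.33. SNAI1 (58.4%) was in the fourth, whose median was -0.091. With the trend subtracted, CDH1 changed by -2.87, SNAI1 by -1.0, FN1 by -0.81 and VIM by -0.41. The part of GC content in these values was not tested.

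**Figure D3:**
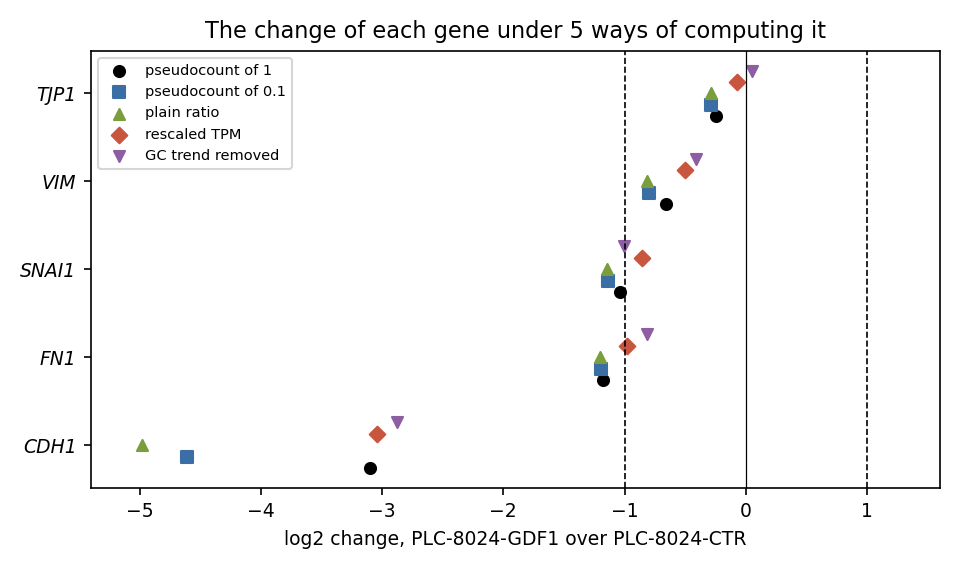
Log2 change of the 5 genes with at least 1 TPM, computed with a pseudocount of 1 or 0.1, as a plain ratio, with rescaled TPM and with the GC trend removed. The dashed lines mark 2-fold. CDH1 stays past 2-fold in all 5, from -4.98 to -2.87, while SNAI1 and FN1 straddle the lower line.

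Genes whose annotated span overlaps the 10 genes were listed at 2.23 TPM or less. Some still exceeded the gene they overlap, as FTLP14 exceeded CDH1 (0.33 TPM) in PLC-8024-GDF1. Inside CDH1, the pseudogene FTLP14 was listed at 2.23 and 1.01 TPM and RNA5SP429 at 0.97 and 0.0082 TPM, both on the same strand. Added up with them, the CDH1 locus had a log2 change of -2.64. Within 1 Mb of CDH1, 46 other genes were expressed. Their median log2 change was -0.15, beside -0.20 for all expressed genes. Of the 46, 2 rose and 4 fell, beside 4.82% rising and 9.61% falling among all expressed genes. Nothing about the region is read from these counts. The gene with the lowest change was ESRP2, 499 kb away, at 12.7 and 1.98 TPM (log2 change -2.20). ESRP2 encodes an epithelial splicing regulator that maintains epithelial isoforms of adhesion genes. Within 1 Mb of SNAI1, 25 other genes were expressed, of which 3 rose and 6 fell, with a median log2 change of -0.58. Within 1 Mb of FN1 there were 8, of which 1 rose and 1 fell, with a median of -0.26. Whether position has a part in the changes was not tested.

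To place the 10 genes in their pathways, 10 lists of other adhesion and EMT genes were described, 278 genes in all, with 7 in more than 1 list. The lists were assembled with earlier results of these data known and none was tested, so their counts and medians are descriptions. They stand beside 4.82% rising, 9.61% falling and a median log2 change of -0.20 over all expressed genes, a median that was -0.025 with rescaled TPM and -0.0079 with the GC trend removed. Among the components of the cadherin–catenin complex, 14 of 17 genes were expressed, and 1 rose (7.14%) and 3 fell (21.4%), with a median log2 change of -0.50 that was -0.29 with the GC trend removed. β-catenin (CTNNB1), which binds the cytoplasmic tail of E-cadherin, fell from 47.7 to 13.3 TPM (log2 change -1.77). Plakoglobin (JUP), its homologue in desmosomes, fell from 99.6 to 35.5 TPM (-1.46), and PLEKHA7, an adherens junction adaptor, from 4.09 to 1.32 TPM (-1.14). CBLL1, also named Hakai, a ubiquitin ligase that promotes E-cadherin endocytosis, rose from 0.96 to 3.65 TPM (1.24). The α-catenin CTNNA1 was listed at 48.7 and 26.5 TPM and p120-catenin (CTNND1) at 9.8 and 6.59 TPM, both within 2-fold.

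Of 44 epithelial junction and polarity genes, 33 were expressed, of which 2 rose (6.06%), 1 fell (3.03%) and 30 were within 2-fold. Their median log2 change was -0.17, close to that of all genes, and was 0.039 with rescaled TPM. F11R, which encodes the junctional adhesion molecule JAM-A, rose from 6.58 to 36.0 TPM (log2 change 2.29), and claudin 7 (CLDN7) rose from 18.6 to 64.0 TPM (1.73). With rescaled TPM the mucin gene MUC1 (1.12) also passed 2-fold.

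Of 20 regulators of the epithelial state, 13 were expressed, of which 4 fell (30.8%), none rose and 9 were within 2-fold. The median log2 change was -0.50, and -0.30 with rescaled TPM. Beside ESRP2 these included FOXA2 (20.4 to 7.70 TPM, log2 change -1.30) and HNF4A (11.4 to 5.15 TPM, -1.02), both liver-enriched transcription factors. HNF4A was within 2-fold with rescaled TPM (-0.84).

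Among 27 other EMT transcription factors and their partners, 15 were expressed and none passed 2-fold, while with rescaled TPM ID3 did (1.11). Their median log2 change was -0.068, which became positive with rescaled TPM (0.064) and with the GC trend removed (0.19). The most abundant were the ID proteins, which hold bHLH factors in inactive dimers and are direct targets of BMP signals. ID1 was listed at 2107 and 2680 TPM, ID3 at 711.9 and 1335 TPM and ID2 at 78.3 and 68.2 TPM. TWIST2, the paralog of TWIST1, was listed at 3.70 and 4.62 TPM.

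Of 57 mesenchymal and matrix genes, 31 were expressed, of which 23 were within 2-fold, 4 rose and 4 fell (12.9% each), with a median log2 change of -0.47. With rescaled TPM LOXL1, a relative of LOX, also passed 2-fold (1.09). The tropomyosin TPM1 fell from 32.4 to 9.06 TPM (log2 change -1.73) and the collagen crosslinking enzyme LOX from 7.32 to 2.36 TPM (-1.31, but -0.89 with the GC trend removed). S100A4, also called fibroblast-specific protein, rose from 12.5 to 61.4 TPM (2.21), nestin (NES) from 1.75 to 7.48 TPM (1.63) and TAGLN, an actin-binding protein, from 6.31 to 16.6 TPM (1.27).

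Beside the fall of FN1, 17 of 23 genes for fibronectin receptors and matrix partners were expressed, of which 5 fell (29.4%) and none rose. The median log2 change was -0.32, and -0.13 with rescaled TPM. ITGB1, the integrin β chain of the main fibronectin receptor, fell from 57.6 to 12.2 TPM (log2 change -2.15), while its α partner ITGA5 was listed at 62.2 and 54.1 TPM. Tensin 1 (TNS1), which links integrins to actin, fell from 7.38 to 1.09 TPM (-2.01), and transglutaminase 2 (TGM2), which crosslinks fibronectin, from 152.1 to 66.1 TPM (-1.19). PTK2 (16.5 to 7.58 TPM, -1.03) and LIMS1 (8.86 to 3.88 TPM, -1.01) of the focal adhesion were just past 2-fold. TGM2, PTK2 and LIMS1 were within 2-fold with rescaled TPM, and with the GC trend removed the integrin gene ITGAV passed 2-fold upward (1.12).

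Among corepressors and protein stability partners of the SNAI and ZEB factors, 37 of 40 genes were expressed, of which 4 fell (10.8%, near the 9.61% of all genes) and none rose. The median log2 change was -0.53, and -0.25 with the GC trend removed. COPS2, a subunit of the COP9 signalosome, which protects Snail from degradation, fell from 25.0 to 1.61 TPM (log2 change -3.32). HDAC1, a deacetylase recruited by Snail, fell from 86.9 to 29.9 TPM (-1.51). FBXO11 (8.57 to 2.26 TPM, -1.55) and FBXL14 (6.95 to 2.23 TPM, -1.30) encode F-box proteins that target Snail for degradation.

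Of 17 other intermediate filament genes and their partners, 13 were expressed, of which 3 rose (23.1%) and 2 fell (15.4%), with a median log2 change of 0.28 that was 0.49 with rescaled TPM. The cholangiocyte and progenitor keratins KRT19 (4.46 to 10.9 TPM, log2 change 1.13) and KRT7 (3.0 to 7.98 TPM, 1.17) rose together with NES. Synemin (SYNM), a partner of vimentin, fell from 2.97 to 0.25 TPM (-1.67), and lamin B1 (LMNB1) from 10.8 to 4.30 TPM (-1.16, but -0.99 with rescaled TPM).

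Of 20 TGF-β target, receptor and SMAD genes, 17 were expressed, of which 2 rose (11.8%) and 5 fell (29.4%). The median log2 change was -0.51, but -0.30 with rescaled TPM and -0.10 with the GC trend removed. The inhibitory SMAD7, a direct target of TGF-β signals, fell from 3.77 to 0.43 TPM (log2 change -1.74). ACVR1B, which encodes the receptor ALK4, fell from 16.6 to 4.51 TPM (-1.67), and SMAD2, which carries receptor signals to the nucleus, from 3.52 to 0.51 TPM (-1.58). TGFBR2 rose from 1.44 to 6.94 TPM (1.70), and TGFBI, a matrix protein induced by TGF-β, from 134.8 to 287.3 TPM (1.09).

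**Figure D4:**
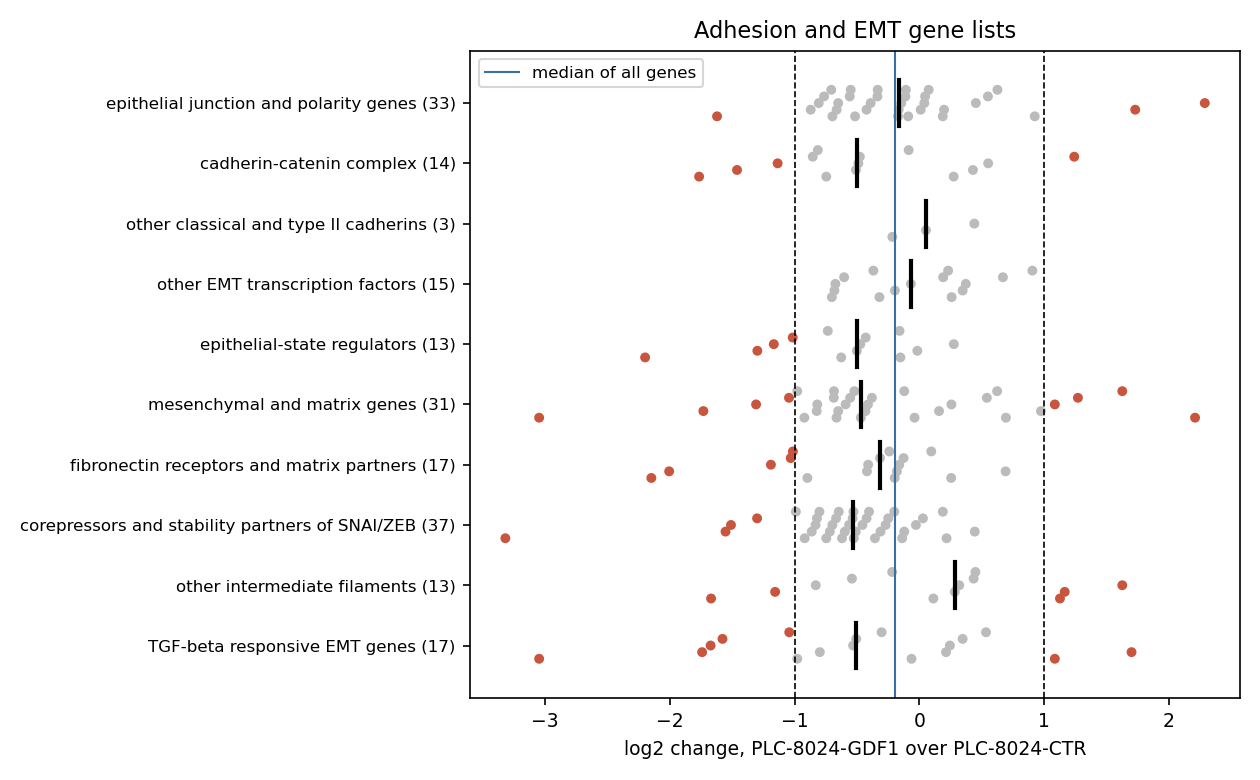
Log2 change (GDF1 minus CTR) for the expressed genes of the 10 lists (number in parentheses). Each point is a gene, red where past 2-fold (dashed lines), the black bar is the list median and the blue line the median of all genes (-0.20). Most points of each list lie between the dashed lines, 30 of 33 in the junction list and 23 of 31 in the mesenchymal list.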

How the data were processed

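RNA-seq was performed on 1 library of PLC-8024-CTR and 1 library of PLC-8024-GDF1 cells. Per the methods and the submitters' processing notes, poly(A) RNA was sequenced as paired ends, and the authors filtered reads with Trimmomatic (0.36), aligned them to hg19 with HISAT2 (2.1.0), quantified them with StringTie (1.3.3b) and deposited TPM values. The stated annotation is RefSeq refGene, while the tables list Ensembl identifiers. The tables summed to 999990 and 999995 TPM, so depth cannot be read from them.

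The genes and lists were chosen with earlier results of these data known. From the TPM values, log2 changes were computed with a pseudocount of 1, and genes that reached 1 TPM in 1 or both libraries were counted past 2-fold. No p-value was computed. Named genes were the 10 genes, overlapping genes, GDF1 and CERS1, marker genes and, per list, genes past 2-fold (the 6 largest changes) or else the 3 most abundant. TJP3, CDH3, CTNNA1, CTNND1, TWIST2, ITGA5, ITGAV, MUC1 and LOXL1, the keratin KRT18 and neighbours of CDH1 were named after their values were seen. Some genes that this rule names are not reported here. Listed symbols matched directly or, for 3, through RefSeq synonyms.

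Positions, GC content and exons came from GENCODE v44 as lifted to GRCh37, which held 55726 of the 58174 identifiers. The alternatives were a pseudocount of 0.1, the plain ratio, rescaled TPM (factor 1.15), a lowess GC trend (span 0.3) removed, other TPM minimums, protein-coding genes only and overlapping genes added up. The scripts ran on Python 3.11.15 with statsmodels 0.14.6, numpy 2.4.6, pandas 2.3.3 and matplotlib 3.10.9, and were tested on simulated data.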

Additional observations from a re-analysis of the deposited data

How the results depend on the processing

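No paired analysis was possible because both conditions were sequenced only once, and for the same reason no library could be left out. CDH1 (-2.64 with overlapping genes added up) stayed past 2-fold and VIM within it under each alternative tried. SNAI1 was within 2-fold with rescaled TPM (-0.86), as was FN1 with rescaled TPM (-0.98) and with the GC trend removed (-0.81). With the GC trend removed TJP1 turned to 0.053 and ZEB2 to 0.36. By the plain ratio ZEB1 (1.17) and ZEB2 (-3.02) passed 2-fold, both at under 1 TPM. Among all genes the share that rose was 1.24% where no filter was used, 7.82% at a pseudocount of 0.1 and 7.88% by the plain ratio. The share that fell was 2.47%, 15.5% and 16.1% under these, and 6.06% with the GC trend removed. With no filter the medians of all genes and of the mesenchymal, other cadherin and other EMT factor lists were 0. Otherwise the list medians kept their sign, except that the junction list was 0.039 with rescaled TPM, the other cadherins -0.082 with at least 5 TPM, and the other EMT factors 0.21 with at least 5 TPM, 0.064 with rescaled TPM and 0.19 with the GC trend removed. The median of the TGF-β list went from -0.51 to -0.10 with the GC trend removed. Rescaling multiplies every TPM of PLC-8024-GDF1 by the same factor, which by itself moves all changes up. Where none of this shows the cause, the cause was not tested. The VIM to CDH1 ratio, chosen after the data were seen, differed by 4.16 on the log2 scale (3.81 with 0.1 TPM and 2.44 with 1 TPM added to each level), and the CDH2 to CDH1 ratio was not run because CDH2 was listed at 0.0001 TPM in both libraries. TPM keeps no depth, which limits ZEB1, ZEB2 and the low level of CDH1 most.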

Other observations

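The rest of the cadherin superfamily was looked at after the values of the cadherins above were seen. None of 53 clustered protocadherins and none of 13 other protocadherins reached 1 TPM in either library. Of 6 genes made up of the CDHR cadherins and CDH23, 4 reached 1 TPM. CDHR2, a protocadherin of the brush border, fell from 13.3 to 5.98 TPM (log2 change -1.03), and CDHR3 was listed at 2.45 and 1.56 TPM. FAT1, a giant cadherin, was listed at 7.14 and 3.57 TPM, CELSR3 at 6.95 and 7.97 TPM, and the desmosomal cadherin DSG2 at 1.55 and 0.39 TPM. All were within 2-fold on the log2(TPM + 1) scale, on which the low-level DSG2 changed by -0.87. The calsyntenins were the most abundant members, with CLSTN1 at 45.3 and 37.4 TPM and CLSTN3 at 31.2 and 25.1 TPM.

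The host transcript of miR-200c, MIR200CHG, was listed at 0.0001 TPM in both libraries. The miR-200 family is known to repress ZEB1 and ZEB2, but mature miRNAs are not captured by poly(A) libraries, so their level cannot be read from these data.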
